A study of Mus musculus with 6 samples.

Results

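The 46 genes described here encode the machinery that copies DNA and the enzymes that make its deoxynucleotides. They were picked by name from the 55487 genes of a bulk RNA-seq table, by a list that sets no condition on measured values but that was written with earlier results of these data known. All 46 were present and passed the filter on low values (15020 genes averaged a normalized count of 10 or more across the 6 libraries). By role they fall into 5 groups: 9 licensing genes, 12 helicase genes, 9 polymerase genes, 12 clamp and lagging strand genes and 4 nucleotide supply genes. The RNA came from bone marrow cells of femora and tibiae of mice of the C57BL/6 strain that carried a leukemia driven by MLL-AF9, a fusion oncogene of acute myeloid leukemia, here termed MA9. Donor leukemia cells were CD45.2(+) Mx1-Cre Brd9fl/fl MA9 in both groups, and 1000 of them were transplanted into irradiated CD45.1(+) CD45.2(-) recipients, 6 weeks of age by the methods of the study. From the day after transplant the recipients received 3 injections, on alternate days, of either PBS (n = 3 libraries) or 20 mg/kg pIpC (n = 3 libraries), and cells were prepared 10 days after injection. pIpC, a double-stranded RNA mimic, evokes interferon, which switches on Cre from the Mx1 promoter. Cre then removes the floxed part of Brd9, a bromodomain subunit of a chromatin remodelling complex. Effects of interferon and of the deletion cannot be told apart in this design. The labels give GFP+ cells and unstranded libraries, whereas the methods of the study give c-Kit+ cells and stranded libraries. Neither says whether each library came from a separate recipient, so p-values measure only the spread between these libraries.

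Before S phase, the origin recognition complex (ORC) together with Cdc6 and Cdt1 loads the ring-shaped MCM complex onto DNA, a step called licensing, and geminin (Gmnn) blocks Cdt1 afterwards so that no origin is licensed again. In S phase, Cdc45 and the GINS complex turn the MCM ring into the active helicase, primase lays down primers, polymerases delta and epsilon extend them on the clamp Pcna, which the RFC complex loads, and Fen1, Dna2 and Lig1 join the pieces of the lagging strand. Ribonucleotide reductase (Rrm1 and Rrm2), thymidine kinase (Tk1) and thymidylate synthase (Tyms) supply the deoxynucleotides. Many of these genes are transcribed under E2F factors, which RB family proteins hold in check, and rapidly dividing marrow progenitors and leukemia cells express them at high levels.

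To show the sequence that lies in front of these genes, promoter windows from RefSeq (GRCm38.p6, from 250 bases before to 50 bases after each start site) were searched on both strands for 4 E2F words (TTTGGCGC, TTTCCCGC, TTTCGCGC and TTTGCCGC) and for CCAAT, the word read by the factor NF-Y. Windows were matched for 38 of the 46 genes. An E2F word stood in 14 of them (36.8%), against 4.17% of the windows of 10307 genes tested here, and CCAAT stood in 22 (57.9%), against 38.6%. All 8 helicase genes with a window held CCAAT and 5 of them held an E2F word. In contrast, none of the 4 nucleotide supply windows held any of the 4 E2F words and 2 of them held CCAAT. A match is a string of letters and was not tested as a binding site. The 250 bases before the start site are given for 2 helicase genes that fell and for Rrm2, the gene that rose most. The other helicase genes that fell, Cdc45 and Mcm2, held no E2F word in their windows. Among further lower genes with a window, Pold1 and Rfc3 held at least 1, and Prim1, Pold2 and Rpa1 held none. Whether E2F words went with direction was not tested. Capitals mark E2F words and CCAAT (or its complement ATTGG), and each sequence is on the strand of its gene. Mcm6 (minus strand) is shown because it held 3 E2F words, at -110, -106 and -47 from the start site, the first pair overlapping, and 2 CCAAT words. Mcm3 (minus strand) is shown because it held 3 CCAAT words in this stretch and E2F words only at 19 and 38 bases past the start site. Rrm2 (plus strand) is shown because it held a single CCAAT word, at -50, and no E2F word of this spelling. The last 13 bases of the Rrm2 stretch lie past the start that GENCODE gives this gene.
Mcm6 (chr1:128359706-128359955): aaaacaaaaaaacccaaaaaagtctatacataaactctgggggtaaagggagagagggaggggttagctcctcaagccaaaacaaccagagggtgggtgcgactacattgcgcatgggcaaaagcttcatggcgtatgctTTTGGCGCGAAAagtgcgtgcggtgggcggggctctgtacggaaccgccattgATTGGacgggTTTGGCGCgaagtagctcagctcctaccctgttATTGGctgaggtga
Mcm3 (chr1:20820313-20820562): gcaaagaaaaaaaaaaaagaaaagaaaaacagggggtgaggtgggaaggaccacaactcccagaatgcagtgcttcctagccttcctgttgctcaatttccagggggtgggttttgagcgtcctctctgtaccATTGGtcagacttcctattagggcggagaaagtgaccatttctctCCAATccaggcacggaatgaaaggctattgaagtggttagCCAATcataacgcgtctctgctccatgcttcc
Rrm2 (chr12:24708004-24708253): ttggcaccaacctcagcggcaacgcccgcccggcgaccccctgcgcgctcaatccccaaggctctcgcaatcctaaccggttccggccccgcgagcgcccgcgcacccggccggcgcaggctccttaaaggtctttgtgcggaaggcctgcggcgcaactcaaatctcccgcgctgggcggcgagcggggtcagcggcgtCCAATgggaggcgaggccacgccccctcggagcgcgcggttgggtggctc

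Libraries held between 19277439 and 23586722 reads on genes. The top 10 genes by count made up 5.55% to 5.85% of reads in PBS and 11.64% to 11.97% in pIpC. Brd9, the targeted gene, was not lower in the libraries labelled pIpC. Its normalized count (reads divided by 1 size factor per library) was 1926.8, 1946.4 and 1631.9 in PBS and 2036, 2263 and 2011.4 in pIpC. This was a log2 fold change of 0.20 (SE, the standard error, 0.13, adjusted p = 0.259 from limma, exact permutation test 2-sided p = 0.1, the smallest that 3 against 3 libraries can give). Directions below therefore follow the labels. Of 8 MLL-AF9 leukemia markers, 7 were lower and Mef2c was higher in pIpC, and their summed normalized count was 30830 to 35930 in PBS and 10330 to 10800 in pIpC. All 12 neutrophil markers were higher, with a sum of 20470 to 46880 in PBS and 2048000 to 2116000 in pIpC. Higher in pIpC were also all 11 erythroid markers tested (1863 to 3083 against 7717 to 10260, Slc4a1 at 0 in every PBS library), all 12 B cell markers (145.8 to 310.1 against 1676 to 3014, Ms4a1 at 0 in PBS) and all 6 T and NK cell markers tested of 10 (198.4 to 323.7 against 4053 to 4631, Trac at 0 in PBS). Nkg7 alone made up most of the T and NK cell sums (161.79 to 301.02 against 3701.6 to 4311.6), and Tfrc most of the erythroid sums in PBS (1809.5 to 3044.7). Of 12 macrophage and stroma markers 8 were higher and 2 lower (sum 11610 to 16880 against 7478 to 9106). Vcam1, which was lower, made up a large part of these sums (6014.8 to 9984.2 against 3909.4 to 5096.1). The part of these cell type differences in the values below was not tested, and in bulk RNA fewer cells of a type and less RNA per cell cannot be told apart.

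The replication genes took a smaller share of the reads in pIpC (0.487% to 0.502%) than in PBS (0.601% to 0.645%), with no overlap between the groups. Nevertheless, most of them moved little one by one. In a limma fit on log2(normalized count + 1) across 15020 genes, 12 of the 46 had a Benjamini-Hochberg adjusted p below the 0.1 that the study also uses, against 45.3% of all genes tested. Of these, 2 were higher in pIpC (Rrm2 and Tk1), against 25.0% of all genes, and 10 were lower, against 20.4% of all genes. The 10 were Mcm2, Mcm3, Mcm6, Cdc45, Prim1, Prim2, Pold1, Pold2, Rfc3 and Rpa1. The share of lower genes was thus near the background, and that of higher genes was below it. The median log2 fold change of the 46 was -0.25 (0.01 over all genes tested), with 36 of them below 0 and 10 above.

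PBS replicate 3 stood apart from the other PBS libraries in these genes and moved their counts. Without it, 27 of the 46 passed (5 higher and 22 lower), against 65.1% of all genes (34.5% higher and 30.6% lower), and the median was -0.14. With each library's trend on transcript length removed, 21 passed (4 higher and 17 lower), against 53.4% of all genes (28.9% higher and 24.4% lower), with a median of -0.15. Leaving out other libraries lowered the count, to 10 without PBS replicate 1 and 7 without PBS replicate 2. Shares of all genes in those fits were 44.4% and 40.5%. The count was 4 without pIpC replicate 1, 3 without pIpC replicate 2 and 4 without pIpC replicate 3. These stand against 33.7%, 31.0% and 31.6% of all genes. Of the 12 genes, Rrm2 and Cdc45 passed whichever library was left out. In 27 of the 46 genes the PBS and pIpC libraries were fully separated, as they were for 56.8% of all genes tested. Of the 46, pIpC was the lower group in 22, against 26.3% of all genes tested, and the higher group in 5, against 30.5%.

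**Figure D1:**
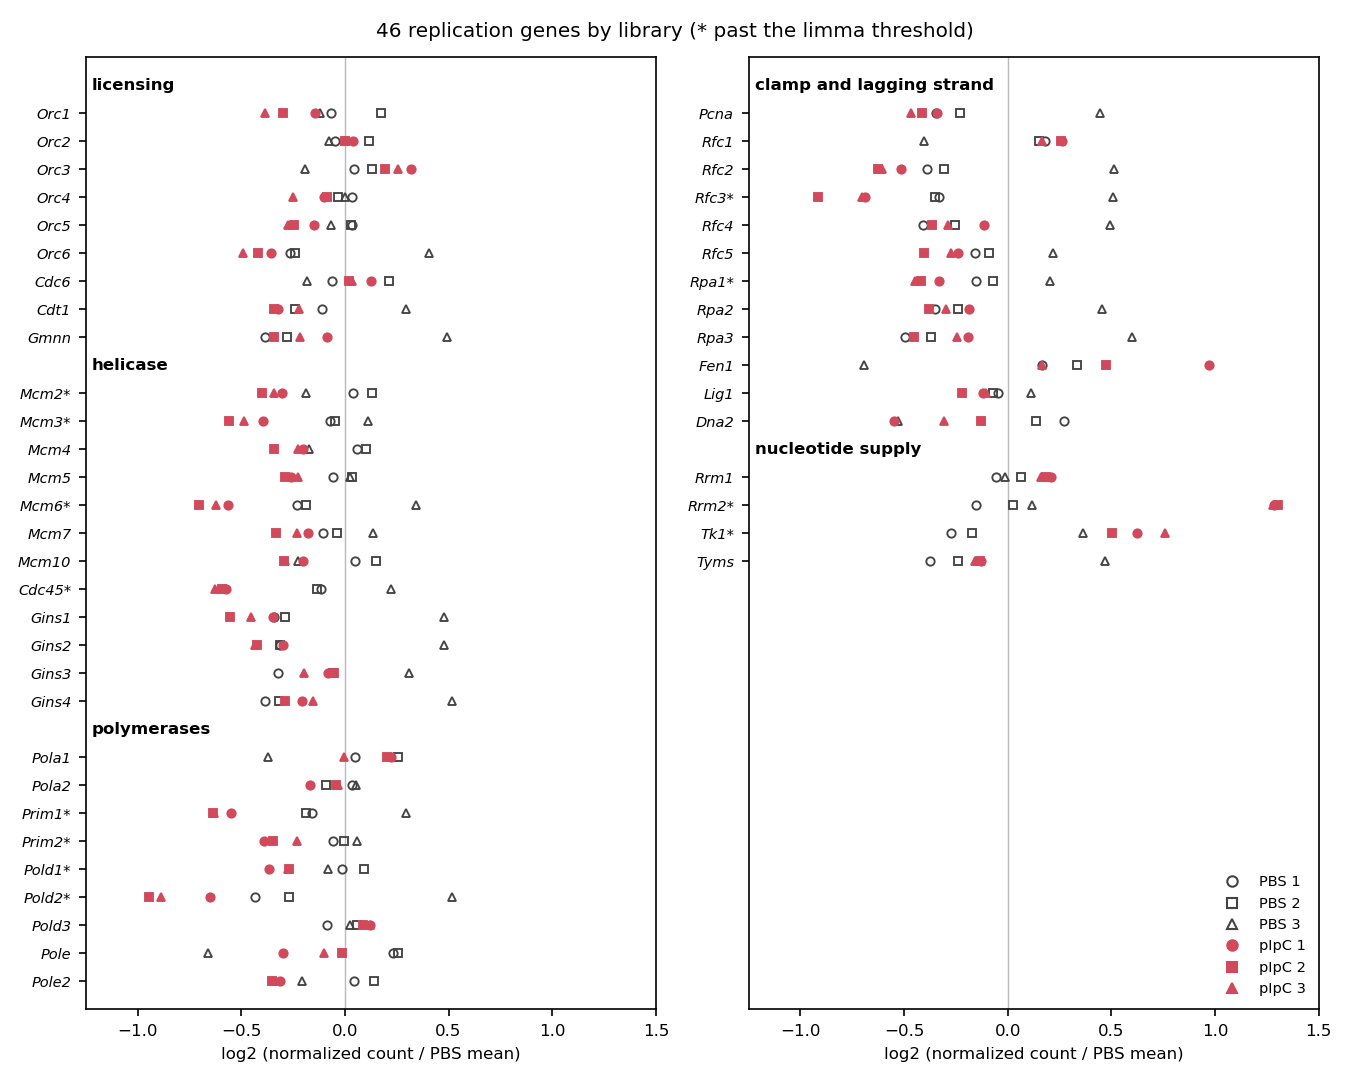
Each gene's log2 ratio of normalized count to its PBS mean (horizontal axis) in the 3 PBS libraries (open) and the 3 pIpC libraries (filled), listed under the 5 groups, with an asterisk at the 12 genes past the limma threshold. Rrm2 and Tk1 lie to the right in pIpC, the helicase genes lie mostly to the left, and PBS replicate 3 is the highest of the 6 libraries in 25 of the 46 genes.

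Nucleotide supply was the group that stood higher in pIpC. Rrm2 (ENSMUSG00000020649, chromosome 12, 24708241 to 24714146) encodes the small subunit of ribonucleotide reductase, which carries the catalytic radical and whose level follows the cell cycle. Its normalized count was 2816.3, 3179.3 and 3387.1 in PBS and 7633.2, 7712.7 and 7597.7 in pIpC. All pIpC libraries lay far above all PBS libraries and close to each other. The mean rose from 3128 ± 289 to 7648 ± 58.9 (SD, n = 3 each), a log2 fold change of 1.29 (SE 0.12, adjusted p = 0.000286, limma). It was 1.35 without PBS replicate 3 and 1.40 with the length trend removed.

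Rrm1, the large subunit that holds the active site, was at 6551.4, 7128.9 and 6747 in PBS and 7879.7, 7736.2 and 7619.9 in pIpC. The groups did not overlap, but the log2 fold change of 0.19 did not pass (adjusted p = 0.237, limma). It passed without PBS replicate 3, at 0.18 (adjusted p = 0.0384, limma). The ratio of the subunits does not depend on how libraries were scaled. Rrm2 to Rrm1 was 0.43, 0.446 and 0.502 in PBS and 0.969, 0.997 and 0.997 in pIpC. The ratio was 2.15-fold higher in pIpC (exact permutation test, 2-sided p = 0.1, the smallest that 3 against 3 can give, 0.133 adjusted over the 4 ratios tested). Nearly equal normalized counts in pIpC do not mean equal levels, since they are not divided by transcript length. Per kilobase of principal transcript, Rrm2 and Rrm1 stood at 1426 and 1704 in PBS and at 3487 and 1938 in pIpC.

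Tk1 (ENSMUSG00000025574, chromosome 11, 117815526 to 117826092) encodes the cytosolic kinase that salvages thymidine. Its normalized count was 1390.4, 1493 and 2159.2 in PBS and 2593, 2384.6 and 2843 in pIpC. No pIpC library overlapped PBS, although PBS replicate 3 came near. The log2 fold change was 0.66 (SE 0.19, adjusted p = 0.0353, limma) and 0.85 without PBS replicate 3, but Tk1 did not pass without PBS replicate 2, pIpC replicate 1 or pIpC replicate 3. Tyms, which makes thymidylate from deoxyuridylate, was at 1432.8, 1572.9 and 2572.3 in PBS and 1698.7, 1692.9 and 1664.2 in pIpC. Its highest and its lowest value were both PBS libraries, and its log2 fold change was -0.09 (adjusted p = 0.772, limma). Without PBS replicate 3 the sign turned and Tyms passed, at 0.17 (adjusted p = 0.0679, limma). All 4 nucleotide supply genes were then higher, against 34.5% of all genes in that fit. Tk1 to Tyms was 0.97, 0.949 and 0.839 in PBS and 1.53, 1.41 and 1.71 in pIpC, a 1.68-fold higher ratio (exact permutation test, 2-sided p = 0.1, 0.133 adjusted over the 4 ratios). The annotation also holds a Tyms pseudogene, with which reads of Tyms may have been shared.

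**Figure D2:**
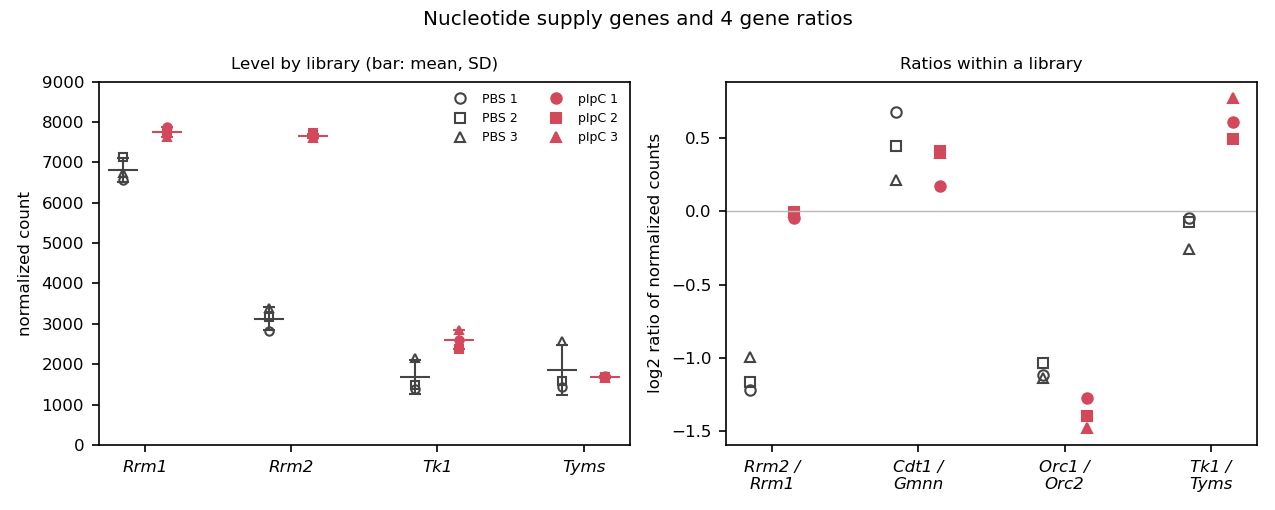
Left, normalized counts of Rrm1, Rrm2, Tk1 and Tyms in each library, with bars for the group mean and SD (n = 3). Right, the log2 ratio of normalized counts within each library for 4 gene pairs. The pIpC values of Rrm2 to Rrm1 and of Tk1 to Tyms all lie above the PBS values, and those of Orc1 to Orc2 all lie below.

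The helicase genes lay on the lower side. All 12 had a log2 fold change below 0 (median -0.30). Of them, 4 fell past the threshold (Mcm6, Cdc45, Mcm3 and Mcm2), against 20.4% of all genes, and none rose, against 25.0%. Lower genes numbered 8 without PBS replicate 3 (30.6% of all genes in that fit) and 3 without PBS replicate 1 or 2. They numbered 2 without pIpC replicate 1 or 3 and 1 without pIpC replicate 2. Of all 15020 genes, 2986 were lower without PBS replicate 1 and 2644 without PBS replicate 2. Without pIpC replicates 1, 2 and 3 in turn, 2096, 1860 and 1908 were lower, against 3058 in the full fit. Mcm6 (ENSMUSG00000026355, chromosome 1, 128331590 to 128359664), a subunit of the MCM ring, had normalized counts of 9603, 9924.5 and 14338 in PBS and 7633.2, 6932.1 and 7332.7 in pIpC. Every pIpC library lay below every PBS library, and PBS replicate 3 stood well above the other PBS libraries. The log2 fold change was -0.61 (SE 0.18, adjusted p = 0.0414, limma), or 64.66% of the PBS mean. Without PBS replicate 3 it was -0.42 and still passed, whereas it did not pass without any 1 of the pIpC libraries (adjusted p = 0.105, 0.149 and 0.129, limma).

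Mcm3 (chromosome 1, 20802968 to 20820312) had 7443.4, 7568.1 and 8435.4 in PBS and 5952.4, 5300.5 and 5580.5 in pIpC. The PBS libraries were closer together here than for Mcm6, and the log2 fold change of -0.48 passed (SE 0.12, adjusted p = 0.0222, limma). Mcm2 (chromosome 6, 88883474 to 88898780) had 5665.4, 6041.8 and 4837.9 in PBS and 4467.3, 4175.6 and 4348.6 in pIpC. Here PBS replicate 3 was the lowest PBS library and narrowed the difference, which was -0.34 with it (SE 0.13, adjusted p = 0.0808, limma) and -0.43 without it. Mcm4, Mcm5 and Mcm7, the other subunits of the ring, had log2 fold changes of -0.25, -0.26 and -0.24, and in each the groups did not overlap. They did not pass in the full fit (adjusted p = 0.167, 0.119 and 0.181, limma) and passed without PBS replicate 3. Mcm10, which helps to activate the loaded ring, was at -0.25, with overlapping groups, and passed without PBS replicate 3 (-0.36) and with the length trend removed (-0.50).

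Cdc45 (chromosome 16, 18780447 to 18811987), the factor that joins MCM in the active helicase, had 2817.1, 2784.5 and 3565.9 in PBS and 2055, 2027 and 1981.4 in pIpC. The pIpC libraries lay close together and all below PBS, with a log2 fold change of -0.59 (SE 0.14, adjusted p = 0.0149, limma), the lowest adjusted p among the genes that fell. The GINS genes, whose products complete the helicase, did not pass. Gins1, Gins2, Gins3 and Gins4 were at -0.40, -0.33, -0.09 and -0.16, and without PBS replicate 3 they were at -0.14, -0.07, 0.08 and 0.13, none of which passed either. PBS replicate 3 was the highest of the 6 libraries in all 4. Of the bases of Gins2, 70.72% also lie in exons of Gse1, so its reads are uncertain if strand was not used in counting.

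None of the 9 licensing genes passed, with 0 at an unadjusted p under 0.05 in limma and 0 called by edgeR's quasi-likelihood test or DESeq2 on the recovered reads. The median was -0.16, from -0.39 for Orc6 to 0.26 for Orc3. Orc6, the smallest ORC subunit, had 1128.2, 1147.8 and 1797.1 in PBS and 1058.9, 1013.5 and 964.1 in pIpC, with no overlap but with PBS replicate 3 far above the rest (adjusted p = 0.175, limma). Orc3 had 1569.5, 1668.1 and 1335.4 in PBS and 1902.3, 1739.9 and 1822.8 in pIpC and had the highest log2 fold change of this group (adjusted p = 0.158, limma). Without PBS replicate 3, Orc3 passed as higher (0.17), and Orc1 (-0.33), Orc5 (-0.26) and Orc6 (-0.17) passed as lower. Cdc6, which brings MCM to ORC, and Orc2 stayed near 0, at 0.07 and 0.01. Orc4 was at -0.15 (adjusted p = 0.365, limma), with every pIpC library below every PBS library. With the length trend removed, Orc4 passed as lower (-0.31, adjusted p = 0.0767, limma) and Orc3 as higher (0.35, adjusted p = 0.0719, limma).

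Cdt1 and its inhibitor geminin were at -0.28 and -0.16, both with overlapping groups. Their ratio was 1.60, 1.36 and 1.16 in PBS and 1.13, 1.33 and 1.32 in pIpC, with overlap (0.921-fold, exact permutation test, 2-sided p = 0.4). Orc1, the ORC subunit whose level varies over the cell cycle, was set against the more constant Orc2. Every pIpC ratio (0.413, 0.38 and 0.358) lay below every PBS ratio (0.461, 0.487 and 0.454), and this 0.82-fold difference reached the smallest p that the design allows (exact permutation test, 2-sided p = 0.1, 0.133 adjusted over the 4 ratios). Of the bases of Orc2, 23.98% also lie in exons of Nif3l1, and of those of Orc1, 11.94% in exons of Gm12743.

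Of the 9 polymerase genes, 4 were lower in pIpC, against 20.4% of all genes, and none higher, against 25.0% (median -0.30). Lower genes numbered 6 without PBS replicate 3 (30.6% of all genes in that fit) and 2 without PBS replicate 1 or 2. They numbered 1 without pIpC replicate 1 or 3 and 0 without pIpC replicate 2. Of all 15020 genes, 2986 and 2644 were lower without PBS replicates 1 and 2. Without pIpC replicates 1, 2 and 3 these were 2096, 1860 and 1908. Pold2 (chromosome 11, 5872180 to 5878292), the accessory subunit of polymerase delta, had 952.6, 1068.9 and 1842.4 in PBS and 820.41, 669.2 and 695.27 in pIpC. The groups were apart, but the PBS spread came mainly from replicate 3. The log2 fold change was -0.76 (SE 0.26, adjusted p = 0.0588, limma), the lowest of the 46 genes in the full fit, and -0.48 without that library, where Dna2 was lower. Pold1, the catalytic subunit, had 3639.9, 3917.2 and 3472 in PBS and 2850.5, 3047.7 and 3041.2 in pIpC, a tighter set of values with a smaller change (-0.30, SE 0.11, adjusted p = 0.0766, limma). Pold3 was at 0.11 and did not pass (adjusted p = 0.458, limma).

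Both primase subunits fell in the full fit. Prim1 (chromosome 10, 128015168 to 128030037), the catalytic subunit, had 2326.6, 2280.5 and 3180 in PBS and 1771.6, 1670.5 and 1674.8 in pIpC, a log2 fold change of -0.59 (SE 0.16, adjusted p = 0.0267, limma). Prim2, the regulatory subunit, had 1156.8, 1198.4 and 1253.9 in PBS and 917.22, 946.08 and 1023.1 in pIpC (-0.32, SE 0.11, adjusted p = 0.0665, limma). For both, no pIpC library reached the lowest PBS library. With the length trend removed Prim2 did not pass, at -0.18 (adjusted p = 0.19, limma). Their partners in the polymerase alpha complex did not pass: Pola1 was at 0.16, with 1658.6, 1913 and 1240.3 in PBS and 1870.4, 1846.2 and 1597.5 in pIpC, and Pola2 was at -0.08. The sign of Pola1 turned without PBS replicate 3 (-0.01) and with the length trend removed (-0.12). Pole, the catalytic subunit of polymerase epsilon, was at -0.08 with PBS replicate 3, which was its lowest library by far (2414.8, 2451.5 and 1300.3 in PBS), and passed as lower without it, at -0.38. Pole2 was at -0.33 (adjusted p = 0.107, limma) and passed as lower without that library, at -0.43.

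In the clamp and lagging strand group, 2 of 12 genes fell, against 20.4% of all genes, and none rose, against 25.0% (median -0.26). Lower genes numbered 5 without PBS replicate 3 (30.6% of all genes in that fit), 3 without PBS replicate 1 and 1 without PBS replicate 2. None passed without any 1 of the pIpC libraries. Of all 15020 genes, 2986 and 2644 were lower without PBS replicates 1 and 2. Without pIpC replicates 1, 2 and 3 these were 2096, 1860 and 1908. Rfc3 (chromosome 5, 151642756 to 151651242), a clamp loader subunit, had 994.99, 979.8 and 1782.4 in PBS and 775.49, 664.1 and 767.8 in pIpC, with a log2 fold change of -0.71 (SE 0.25, adjusted p = 0.065, limma) and of -0.43 without PBS replicate 3. Rpa1 (chromosome 11, 75298166 to 75348324), the largest subunit of the complex that coats single-stranded DNA, had 4067.4, 4303.8 and 5202.3 in PBS and 3598, 3386.9 and 3312.9 in pIpC (-0.39, SE 0.13, adjusted p = 0.0619, limma). For both genes PBS replicate 3 was the highest library and every pIpC library lay below every PBS library.

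The clamp itself, Pcna, had 7256.5, 7863.7 and 12569 in PBS and 7276.9, 6934.2 and 6680 in pIpC, so that pIpC replicate 1 overlapped PBS (-0.36, adjusted p = 0.241, limma). Pcna has annotated pseudogenes that may have shared its reads. Among its loaders, Rfc1 was at 0.25 and Rfc2, Rfc4 and Rfc5 at -0.52, -0.20 and -0.30, and none of them passed. Without PBS replicate 3, Rfc2 (-0.23) and Rfc5 (-0.18) passed as lower. The smaller RPA subunits Rpa2 and Rpa3 (-0.24 and -0.21), the ligase Lig1 (-0.14) and the nuclease Dna2 (-0.29) did not pass either. Without PBS replicate 3, Dna2 passed as lower (-0.53), whereas the signs of Rpa2 (0.01) and Rpa3 (0.14) turned and neither passed. With the length trend removed, Dna2 passed as lower (-0.45) and Rpa3 as higher (0.26, adjusted p = 0.0685, limma). Fen1, the flap nuclease, had 267.35, 301.63 and 147.12 in PBS and 468.09, 332.05 and 267.86 in pIpC, with overlap (0.60, adjusted p = 0.201, limma). Its value is uncertain, since 83.86% of its bases also lie in exons of Tmem258 and Gm10143.

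Levels within a complex are given as a description, with no test of the differences between its members. Per kilobase of principal transcript, the 6 MCM ring genes spanned 2.89-fold in PBS, from Mcm4 at 1344 to Mcm6 at 3879, and 2.23-fold in pIpC. The 6 ORC genes spanned 8.28-fold in PBS, from Orc1 at 127.4 to Orc6 at 1055, and 7.51-fold in pIpC. The 5 RFC genes spanned 1.62-fold and 1.25-fold. Pcna had the highest level per kilobase of all 46 genes in both groups (6080 in PBS and 4587 in pIpC). Rrm2 moved from rank 10 (1426 per kilobase) to rank 2 (3487), while Mcm6 went from rank 2 to rank 3 (2508) and Prim1 from rank 7 (1640) to rank 14 (1077). The mean log2 level of a group differed between pIpC and PBS by -0.33 for the helicase genes, -0.24 for the polymerases, -0.21 for the clamp and lagging strand and -0.12 for licensing, and by 0.51 for nucleotide supply.

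**Figure D3:**
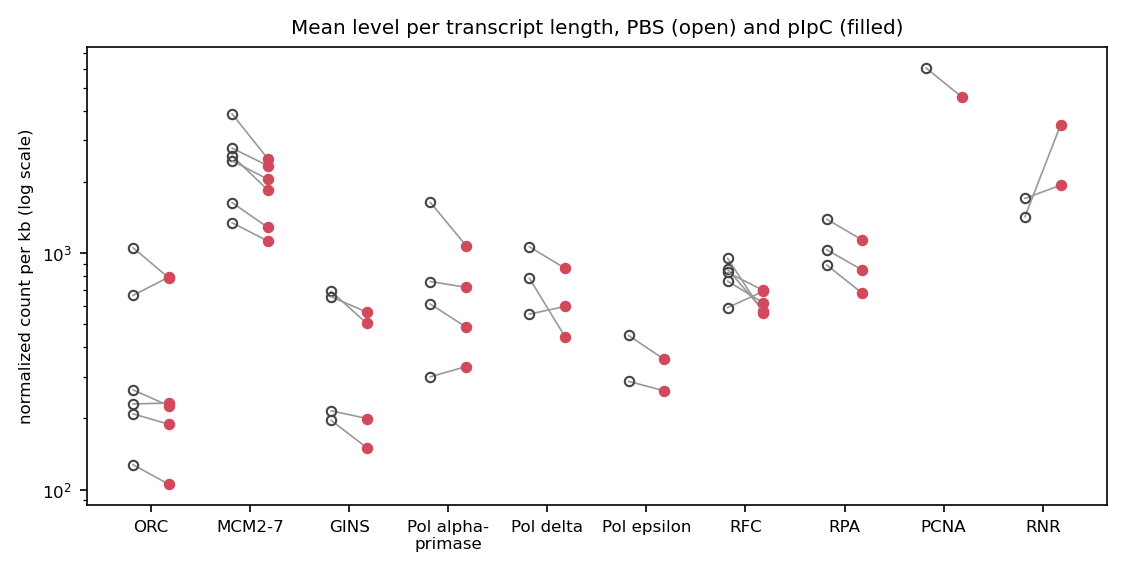
Mean normalized count per kilobase of principal transcript (vertical axis, log scale) for the genes of each complex, in PBS (open) and pIpC (filled), with a line joining the values of each gene (Pol, polymerase and RNR, ribonucleotide reductase). The MCM genes sit high and close together (1344 to 3879 in PBS), the ORC genes sit lower and spread widely (127.4 to 1055), and Rrm2 is the gene whose pIpC point lies clearly above its PBS point.

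The offset of PBS replicate 3 in these genes went with transcript length. Its log2 difference from the mean of the other PBS libraries was above both of them in 27 genes and below both in 15. Over the 46 genes this difference correlated with log transcript length at Pearson's r = -0.62 (Spearman's rho = -0.59), a description across genes of the same 3 libraries. For PBS replicate 1 minus replicate 2 the r was 0.07, and for pIpC replicate 3 minus the mean of the other pIpC libraries it was -0.18. Over 15005 tested genes with a length the same offset of PBS replicate 3 gave r = -0.33 and rho = -0.51. Of the 14 replication genes with transcripts under 2000 bases, 13 were above 0 in PBS replicate 3, with a median of 0.77 and a range from -0.30 to 1.03. Of the 8 with at least 4000 bases, 2 were above 0, with a median of -0.42 and a range from -0.90 to 0.86. Short genes such as Rpa3 (1.03), Gins4 (0.87) and Pold2 (0.87) were raised in that library, and long ones such as Pole (-0.90) and Dna2 (-0.73) were lowered.

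**Figure D4:**
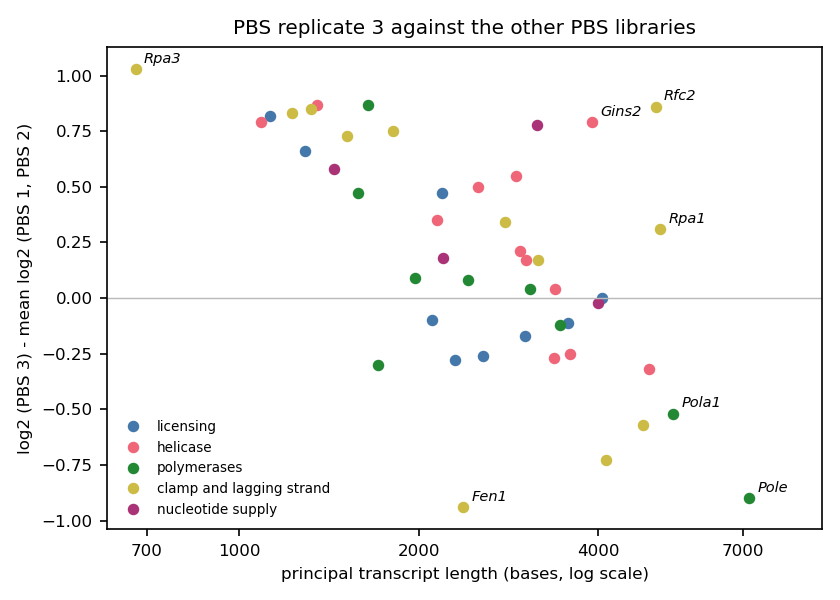
Log2 difference of PBS replicate 3 from the mean of PBS replicates 1 and 2 (vertical axis) against principal transcript length in bases (horizontal axis, log scale), 1 point for each of the 46 genes, coloured by group. Points fall from a median of 0.77 under 2000 bases to -0.42 at 4000 bases or more (r = -0.62).

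The replication genes were then set beside 92 other genes of the pathway, in 6 lists by role. Of the 91 tested, 43 changed (47.3%, against 45.3% of all genes), 22 higher and 21 lower, with a median log2 fold change of -0.01. Without PBS replicate 3, 66 of them changed (72.5%, against 65.1% of all genes in that fit). Of 13 origin firing kinases and cyclins, 8 were higher, against 25.0% of all genes, and none lower. Cdc25a, the phosphatase that activates cyclin-dependent kinases, rose from 1903 ± 276 to 4482 ± 113 (SD, n = 3 each), a log2 fold change of 1.25 (adjusted p = 0.000667, limma). Dbf4, the activator of the Cdc7 kinase that fires licensed origins, stood at the low end of those that passed, at 0.40 (adjusted p = 0.0225, limma), with 1451.8, 1481.8 and 1462.1 in PBS and 1914.3, 1902.4 and 1999.8 in pIpC. The count of higher genes was 9 without PBS replicate 3 (34.5% of all genes in that fit), with 3 then lower (30.6% of all genes). It was 5 without pIpC replicate 2 and 3 without pIpC replicate 3. Of all 15020 genes, 2790 were higher without pIpC replicate 2 and 2842 without pIpC replicate 3.

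Among 13 E2F and RB regulators, 7 were higher, against 25.0% of all genes, and 2 lower, against 20.4%. E2f2, an activator of S phase genes, rose from 816.76, 763.19 and 768.4 in PBS to 4024.2, 4846.9 and 4118.4 in pIpC, a log2 fold change of 2.46 (SE 0.12, adjusted p = 3.11e-05, limma). E2f6, a repressor of the family, fell by 0.81 (adjusted p = 0.00172, limma). E2f1, named after its values were seen, is also an activator but moved against E2f2, with 1606.7, 1575 and 1580.9 in PBS and 1009, 1074.8 and 1024.1 in pIpC (-0.62, adjusted p = 0.0043, limma). In all 3 genes the groups were far apart and PBS replicate 3 lay with the other PBS libraries.

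Of 15 fork protection and checkpoint genes, 4 were lower, near the 20.4% of all genes, and none was higher, with a list median of -0.08. Those that passed ran from Tipin, which links the helicase to the polymerases at the fork (-0.46), to Atrip, the partner of the checkpoint kinase ATR (-0.34), with adjusted p = 0.0692 and 0.0877 from limma. The count of lower genes was 10 without PBS replicate 3 (30.6% of all genes in that fit) and 2 without PBS replicate 1 or pIpC replicate 1. It was 0 without PBS replicate 2, pIpC replicate 2 or pIpC replicate 3 and with the replicate block. Of all 15020 genes, 2986 and 2096 were lower without PBS replicate 1 and pIpC replicate 1. Without PBS replicate 2, pIpC replicate 2 and pIpC replicate 3 these were 2644, 1860 and 1908, and with the replicate block 2700. Other polymerase, clamp loader and ligation factors were split, with 3 of 14 higher (25.0% of all genes) and 4 lower (20.4% of all genes). The higher ones numbered 5 without PBS replicate 3, 0 without pIpC replicate 1 or 2 and 1 without pIpC replicate 3. The lower ones numbered 3 to 6 with each library left out in turn. Of all 15020 genes, 34.5% were higher without PBS replicate 3, and 2964, 2790 and 2842 genes without pIpC replicates 1, 2 and 3. Lower genes overall ranged from 1860 to 4597 with each library left out. Pold4, the smallest subunit of polymerase delta, had 629.87, 562.78 and 1123.7 in PBS and 316.39, 325.92 and 299.77 in pIpC (-1.23, adjusted p = 0.0117, limma). Of its bases, 31.33% also lie in exons of AC109138.7. Chtf8 stood at the other end of that list, at 1.73 (adjusted p = 0.0753, limma), but its mean normalized counts were only 9.031 and 27.54 and 95.05% of its bases lie in exons of other genes. Of 9 genes for chromatin assembly and maintenance methylation, 1 passed, against 45.3% of all genes. It was the histone chaperone Asf1b, which rose by 0.60 (adjusted p = 0.0137, limma).

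Of the 27 other nucleotide enzymes tested, 11 were lower (20.4% of all genes), 3 were higher (25.0% of all genes) and 13 did not pass. The count of lower enzymes was 17 without PBS replicate 3 (30.6% of all genes) and 7 without pIpC replicate 2 (1860 of 15020 genes). The highest was Impdh1, an isoenzyme of the step that commits purines to guanine nucleotides, with 199, 245.96 and 234.25 in PBS and 2135.8, 1946.3 and 2258.9 in pIpC (3.22, SE 0.14, adjusted p = 2.14e-05, limma). The lowest was Dtymk, the kinase that follows Tk1 and Tyms on the way to dTTP, with 4110.6, 4260.3 and 7111.4 in PBS and 2464.2, 2443.9 and 2489.1 in pIpC (-1.02, adjusted p = 0.0117, limma). The groups did not overlap in either gene. Other members of this list, named after their values were seen, were Dck, which salvages deoxycytidine (0.90), and Samhd1, which breaks down deoxynucleotides (1.70), both higher. Dhodh, Umps and Ctps of pyrimidine synthesis were lower (-0.89, -0.79 and -0.86), as were Atic and Adss of purine synthesis (-0.87 and -0.93).

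**Figure D5:**
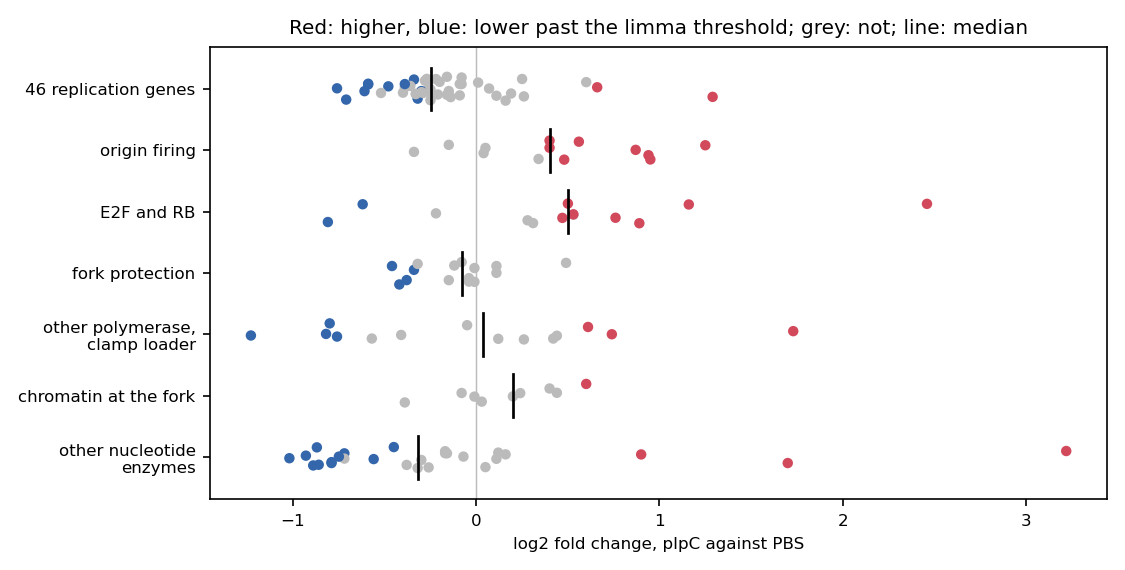
Log2 fold change of pIpC against PBS (horizontal axis) for the 46 replication genes in the top row and the genes of the 6 lists of other pathway genes below, 1 point for each gene with vertical scatter only to separate points. Points are red where higher, blue where lower and grey where not past the limma threshold, and lines mark medians, which lie at -0.25 for the replication genes, at 0.40 for origin firing and at -0.32 for the other nucleotide enzymes.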

How the data were processed

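RNA-seq of 6 bone marrow libraries, 3 PBS and 3 pIpC, was analysed, with groups taken from the sample labels. The authors deposited 1 table of gene counts, each library divided by its own size factor, a unit handled as signal. The methods of the study give nf-core/rnaseq (STAR and RSEM) and DESeq2, whereas the submitters' processing notes name HISAT2 (2.2.1), SAMtools, featureCounts, Subread, edgeR and GRCm38. Reads of overlapping genes, and of pseudogenes, may have been divided differently by these tools. In every column 100% of the values above 0 were whole multiples (within 0.05) of the value of 1 read, so that read counts were recovered: 22378154, 19277439 and 21230930 in PBS and 23248511, 22348517 and 23586722 in pIpC. This depth limits precision for the lowest counts only. Positions and lengths came from GENCODE release M21 on GRCm38, and 55141 of 55487 IDs had a symbol.

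The main test was limma (3.58.1, R 4.3.3) with its variance trend on intensity, on log2(normalized count + 1), where the added 1 understates folds of low genes, over 15020 genes with a mean of at least 10, with Benjamini-Hochberg adjusted p under 0.1. Ratios and Brd9 had exact permutation tests. Alternatives were edgeR (4.0.16) and DESeq2 (1.42.0) on recovered reads, pseudocounts of 0.1 and 10, other filters, quantile normalization, median centring, no intensity trend, removal of each library's length trend (lowess, span 0.3), a replicate block, an adjusted p under 0.05 and each library left out. The scripts were tested on simulated data. Deviations of same-numbered libraries from their group means correlated at -0.117, 0.143 and 0.041, so numbers were not taken as pairs.

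The members, lists, tests and named genes were chosen with earlier results of these data known. In each group of members the highest and lowest log2 fold change and further genes past the threshold with groups apart were named in full, and in each list of other pathway genes the highest and lowest past the threshold. Other values are given to account for every member. Nme2 was under the filter, and Ahsp, an erythroid marker, was not matched. The value of 1 other marker is not reported here.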

Additional observations from a re-analysis of the deposited data

How the results depend on the processing

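Which of the 46 genes passed depended on single libraries. The count of 12 ranged from 3 to 27 with each library left out in turn. It was 27 without PBS replicate 3, 10 without PBS replicate 1 and 7 without PBS replicate 2. For the pIpC libraries it was 4 without replicate 1, 3 without replicate 2 and 4 without replicate 3. Shares of all genes were 65.1%, 44.4% and 40.5% without PBS replicates 3, 1 and 2. Without pIpC replicates 1, 2 and 3 they were 33.7%, 31.0% and 31.6%. Of the 46, the higher genes ranged from 1 to 5 and the lower genes from 1 to 22. Over all 15020 genes these ranges were 2790 to 5186 and 1860 to 4597. Removing the length trend gave 21 genes (4 higher, 17 lower), quantile normalization 22 (20 lower) and an adjusted p under 0.05 gave 6 (4 lower). Shares of all genes that passed in these settings were 53.4%, 48.7% and 35.7%. Lower genes of the 46 numbered 6 with no filter and 6 with no intensity trend. Of all genes, 3215 of 27901 and 2881 of 15020 were lower there. edgeR called 13 of the 46 (45.9% of all genes) and DESeq2 15 (49.6% of all genes). A replicate block left 8 of the 46 (2 higher, 6 lower), against 40.6% of all genes. The 43 other pathway genes ranged from 26 (without pIpC replicate 2 or 3) to 66 (without PBS replicate 3), and the 6808 genes overall from 4650 to 9783. Quantile normalization moved the median of all genes to -0.12 and the share of higher genes among those that changed from 55.1% to 44.3%.

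Signs turned in 3 of the 29 genes named by the rule above. Without PBS replicate 3, Gins3 was at 0.08, Tyms at 0.17 and Pola1 at -0.01, and Pola1 was at -0.12 with the length trend removed. With each library left out in turn, Pola1 ranged from -0.01 to 0.30 and Tyms from -0.26 to 0.17. Over 29 named genes and 521 comparisons, 438 kept direction and side of the threshold, 75 no longer passed, 4 newly passed and these 4 turned. Members outside the 29 turned as well without PBS replicate 3. Gmnn (0.11), Gins4 (0.13), Rfc4 (0.08), Rpa2 (0.01) and Rpa3 (0.14) then lay above 0. Cdc6 (-0.02) and Orc2 (-0.02) then lay below 0. Log2 ratios with each library left out stayed at 1.06 to 1.17 for Rrm2 to Rrm1, 0.68 to 0.82 for Tk1 to Tyms, -0.34 to -0.24 for Orc1 to Orc2 and -0.24 to 0.0 for Cdt1 to Gmnn, and Brd9 stayed at 0.12 to 0.24. The causes were not tested.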
